A study of Mus musculus with 6 samples.

Results

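Scavenger receptors are a family of proteins grouped by what they bind and not by shared ancestry, and 8 of their genes were followed here in macrophages sorted from skin wounds of young and aged mice. The genes were chosen by name, with earlier results of these data known. They were Msr1 and Marco of class A, Cd36, Scarb1 and Scarb2 of class B, Cd68 of class D and Olr1 of class E. The last was Cd5l, whose protein is a secreted relative. All 8 were present among the 15168 genes of the count table, and 7 of them were among the 11878 genes with enough counts to be tested. Marco was the gene that was too low to test.

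The RNA came from macrophages sorted as F4/80+ CD64+ cells, within a gate of live CD45+ CD11b+ cells, on day 3 after wounding, when inflammation dominates healing. Each mouse was wild type, female and of strain C57BL6/J and had received 2 full-thickness wounds of 10 mm on the back. The 3 young samples were from mice aged 12 weeks and the 3 aged samples from mice aged 24 months, and the samples of both ages carry the set letters A, B and C. Because the labels do not say whether samples of an age came from separate mice, p-values measure the spread between these samples, which may be partly technical. The libraries were made with SMART-Seq v4, which amplifies full-length cDNA from small amounts of RNA, and held 15270103 to 17927483 expected counts per sample. Levels are given as CPM, counts per 1000000 counts of a library after scaling between libraries.

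Scavenger receptors were first described as the receptors by which macrophages take up oxidised or acetylated low-density lipoprotein (LDL). They also bind apoptotic cells, bacterial surface molecules and matrix proteins, and in a wound macrophages use such receptors to clear debris and dying neutrophils. Several of them pass lipid to the lysosome or signal together with Toll-like receptors, and loading with oxidised LDL turns macrophages into foam cells.

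Olr1 and Cd36 rose in aged wound macrophages. Olr1 passed the test in each of the 6 fits that left out 1 sample, and Cd36 in 2 of them. Cd68, the most abundant of the 8 genes per length, had lower values in every aged sample without passing the test. Of the 7 genes tested, 2 passed an adjusted p-value of 0.05, both higher in aged samples, beside 17.7% of all genes tested that passed in either direction, 9.73% that passed as higher and 7.97% that passed as lower. None of the 7 was significantly lower by edgeR's quasi-likelihood test, while 1 with lower values, Cd68, had an unadjusted p-value under 0.05. So did 4101 of all 11878 genes tested, in either direction. DESeq2 also called 0 of the 7 lower, and limma-voom with sample quality weights called 1, again Cd68. In these fits 16.9% and 30.7% of all genes passed in either direction. With a change of more than 2-fold required as well, Olr1 alone passed, beside 8.79% of all genes tested. In 3 of the 7 genes the aged samples did not overlap the young ones, beside 38.2% of all genes tested. The median log2 fold change of the 7 genes was 0.19, and that of all genes tested was -0.02.

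**Figure D1:**
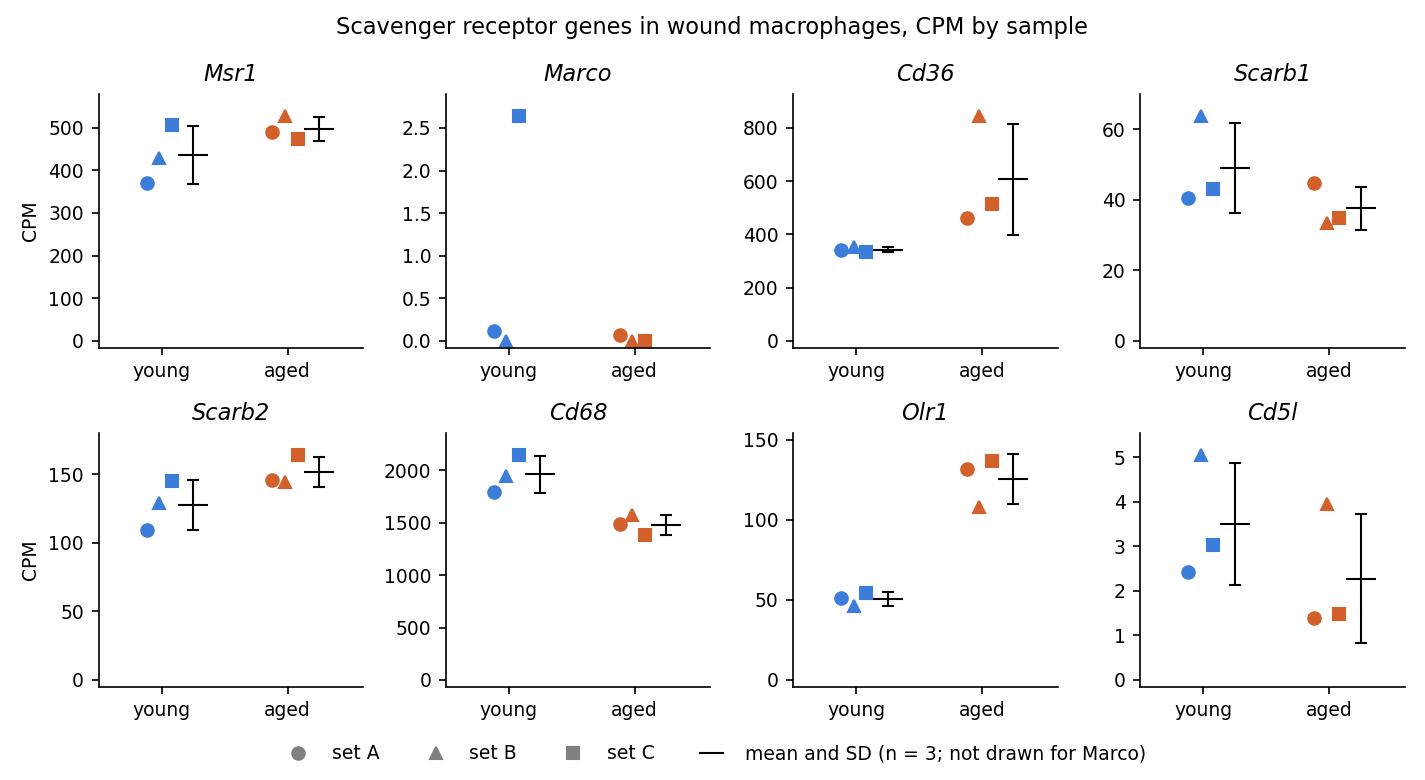
Level of each of the 8 scavenger receptor genes in CPM (vertical axes from 0, a different scale for each gene) in the 3 young and 3 aged samples, with marker shapes for the set letters and a bar for the mean and SD, which is not drawn for Marco. Olr1 ran from 45.9 to 54.4 CPM in young and from 108 to 137 CPM in aged samples, and nearly all Marco counts came from young C.

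The marker genes of the sort were well expressed at both ages. Of 8 macrophage markers, all 8 were tested, 2 rose and 1 fell in aged samples in edgeR, while DESeq2 and limma-voom each called 2 lower, and their summed level was 33812, 36305 and 49341 CPM in young A, B and C and 40885, 32418 and 40587 CPM in aged A, B and C. The most abundant was Lyz2, which encodes lysozyme, at 29834 ± 7890 CPM in the young and 18621 ± 2596 CPM in the aged samples (SD, n = 3), lower in every aged sample without passing (edgeR adjusted p = 0.0753). Without Lyz2 the sums were 9655, 9804 and 10498 CPM in young A, B and C. In aged A, B and C they were then 19496, 16178 and 22353 CPM. Cd14 was at 7888 ± 478 CPM in the young and 16855 ± 3050 CPM in the aged samples. Among the genes of the gate, Fcgr1 (CD64) was at 450 ± 24.3 and 500 ± 13.7 CPM and Ptprc (CD45) at 210 ± 17.3 and 251 ± 59.1 CPM. Itgam (CD11b) rose from 376 ± 36.7 to 750 ± 63.7 CPM (edgeR adjusted p = 0.00735) and passed in each of the 6 fits that left out 1 sample. Adgre1 (F4/80) fell from 329 ± 35.3 to 204 ± 34.8 CPM, which is -0.69 as log2 fold change (SE, the standard error, 0.18, adjusted p = 0.0292, edgeR). The highest log2 fold change in this list was that of Cd14, a co-receptor for lipopolysaccharide, at 1.10 (SE 0.21, edgeR adjusted p = 0.0110), and the lowest that of Mertk, a receptor for apoptotic cells, at -0.72 (SE 0.36, edgeR adjusted p = 0.180). With samples left out in turn, the adjusted p of Adgre1 ran from 0.0179 to 0.113 and was over 0.05 without young B, young C, aged A or aged C, and that of Cd14 was over 0.05 without young C (0.0538) or aged C (0.0549).

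Aged B stood apart from the other samples in RNA of other cell types. Summed over 10 keratinocyte markers it held 191 CPM, beside 2.05 to 9.95 CPM in the other 5 samples, and over 7 fibroblast markers 121 CPM, beside 12.4 to 41.6 CPM. Krt14 was the most abundant keratinocyte marker by mean over the 6 samples, through aged B alone. It was at 80.2 CPM in aged B, 0.771 and 0.865 CPM in aged A and C, and from 0 to 0.176 CPM in young samples. The marker Sfn was above Krt14 in every sample except aged B. Fold changes of Cd36, Cd163 and these markers are therefore given with and without aged B.

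Olr1 encodes the lectin-like receptor for oxidised LDL known as LOX-1, a protein of the C-type lectin fold, and lies on the minus strand at chr6:129485244-129507165 of GRCm38 (mm10). It was measured at 51.0, 45.9 and 54.4 CPM in young A, B and C and at 132, 108 and 137 CPM in aged A, B and C. The lowest aged sample was well above the highest young one. Between the means of 50.4 ± 4.30 CPM in the young and 125 ± 15.6 CPM in the aged samples (SD, n = 3), the fitted change was 2.49-fold (95% confidence interval 1.93 to 3.20), or 1.31 as log2 fold change (log2FC, SE 0.17, adjusted p = 0.00223 in the quasi-likelihood test of edgeR, adjusted over all genes tested). It passed in each of the 6 fits that left out 1 sample, with log2FC values of 1.25 to 1.43. In bulk RNA, more cells that express a gene and more of its RNA per cell cannot be told apart, which holds for each difference reported here.

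Cd36 encodes a class B receptor for oxidised LDL, long-chain fatty acids and thrombospondin-1, and spans chr5:17781690-17888801 on the minus strand. Its level was 341, 351 and 333 CPM in young A, B and C and 460, 844 and 514 CPM in aged A, B and C. Young samples were nearly equal, every aged sample was above them, and aged B was far above the other aged samples. The mean was 342 ± 8.92 CPM in the young and 606 ± 208 CPM in the aged samples (SD, n = 3), so the coefficient of variation was 2.61% in young and 34.3% in aged samples. Cd36 rose 1.77-fold (95% confidence interval 1.25 to 2.52), a log2FC of 0.83 (SE 0.23, adjusted p = 0.0346, edgeR). Without aged B the log2FC was 0.52 and the edgeR adjusted p was 0.0804. It also lost the call without young B (adjusted p = 0.0911), young C (0.129) and aged C (0.0673), in a range of 0.0254 to 0.129 over the 6 edgeR fits that each left out 1 sample. In the fit without young C, 1.78% of all genes passed.

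Platelets, endothelial cells, adipocytes and keratinocytes can also express Cd36. The gate took CD45+ CD11b+ cells, and markers of these cell types were measured to see what RNA of theirs was in the samples. Of 8 platelet markers 4 were in the count table and 2 were tested. The highest log2FC and the highest mean level over the 6 samples were those of Ppbp, a platelet chemokine, which rose from 303, 500 and 432 CPM in young A, B and C to 890, 2738 and 1384 CPM in aged A, B and C (log2FC 2.02, SE 0.37, edgeR adjusted p = 0.00967). Ppbp lost this call without young C (adjusted p = 0.0586), and without aged B its log2FC was 1.48. The lowest was that of Pf4, a chemokine that macrophages also express, at 1094 ± 239 CPM in the young and 885 ± 329 CPM in the aged samples (log2FC -0.31, SE 0.29). Summed platelet markers stood at 1124, 1699 and 1695 CPM in young A, B and C and 1417, 3910 and 2339 CPM in aged A, B and C, highest in aged B as was Cd36. That order rests on Ppbp. Without Ppbp the sums were 820, 1199 and 1262 CPM in young A, B and C. In aged A, B and C they were then 527, 1172 and 955 CPM, so aged B was not the highest sample. The defining platelet integrin Itga2b was near 0, at 0.221, 0.763 and 0 CPM in young A, B and C and 0.0701, 0.191 and 0 CPM in aged A, B and C.

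Summed endothelial markers were higher in each aged than in every young sample, at 13.2, 12.8 and 12.4 CPM in young A, B and C and 27.0, 33.6 and 32.1 CPM in aged A, B and C. All 9 were in the count table, 4 were tested and 1 of these passed. That gene was Pecam1, which myeloid cells also express and which was the most abundant of them, with a log2FC of 1.69 (SE 0.21, edgeR adjusted p = 0.00220). Without Pecam1 the sum was 4.76 ± 1.49 CPM in the young and 4.99 ± 3.12 CPM in the aged samples. Kdr had the lowest log2FC, -0.40 (SE 0.54, and 0.03 without young C), and the defining marker Cdh5 was at 0.429 ± 0.336 CPM in the young and 0.127 ± 0.169 CPM in the aged samples. Of 8 adipocyte markers 4 were in the count table, and their sum was 10.7, 5.57 and 18 CPM in young A, B and C and 6.09, 22.7 and 10.3 CPM in aged A, B and C. Fabp4 was the most abundant and the only gene of that list tested (log2FC 0.48, SE 0.45, edgeR adjusted p = 0.486, and -0.18 as log2FC without aged B), and Adipoq was at most 0.573 CPM in every sample. Of 10 keratinocyte markers 2 were tested, Krt14 and Sfn, and both passed as higher in edgeR, while 1 did in DESeq2 and 0 in limma-voom. Their sum was 3.48, 2.05 and 2.05 CPM in young A, B and C and 9.95, 191 and 3.77 CPM in aged A, B and C, and the log2FC was 8.29 for Krt14 (SE 2.09, edgeR adjusted p = 0.0259) and 2.36 for Sfn (SE 0.64, edgeR adjusted p = 0.0329). Without aged B these were 3.25 and 1.55, the edgeR adjusted p was 0.0484 for Krt14 and 0.0980 for Sfn, and without young C it was 0.111 and 0.131. Krt14 was over 0.05 without young B too (0.0925), and Sfn without young B (0.115) or aged A (0.0531). The part of these cell types in the level of Cd36 was not tested.

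**Figure D2:**
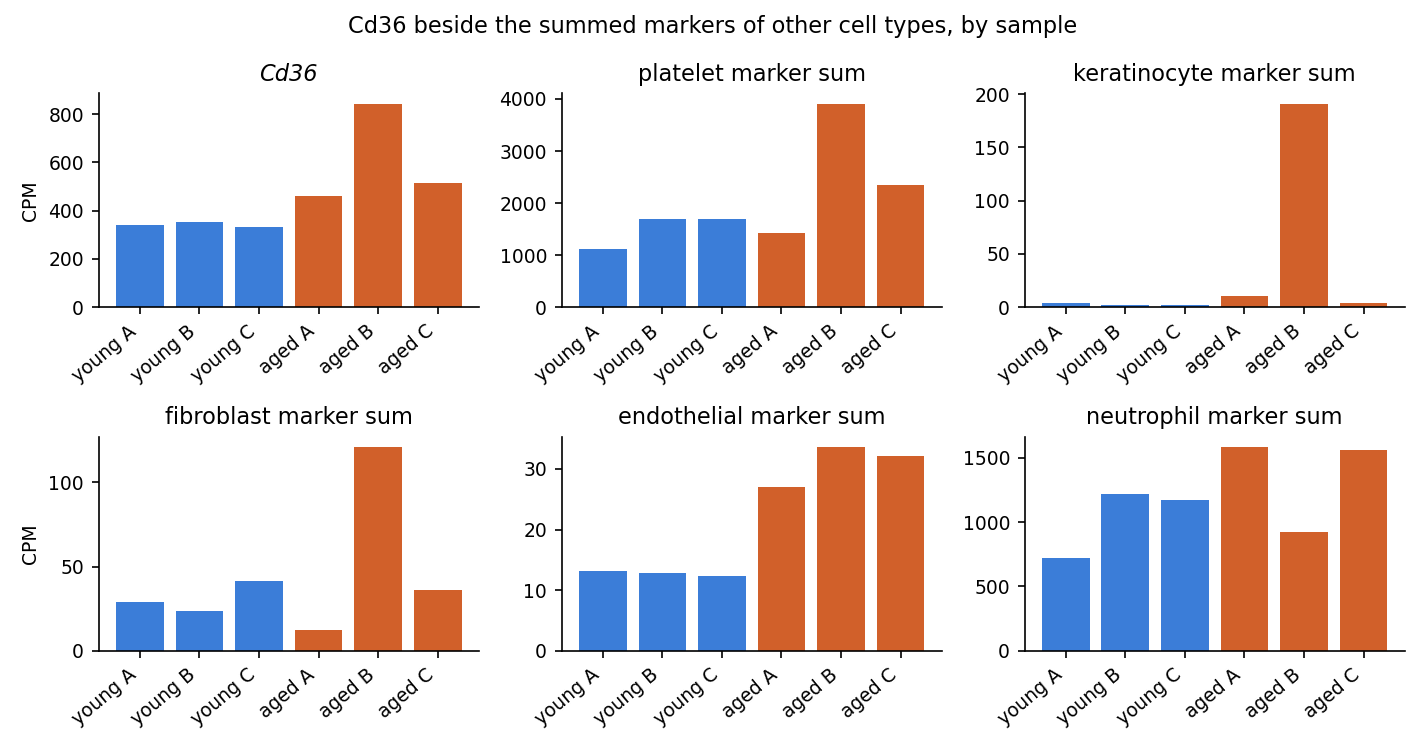
Level of Cd36 and the summed levels of the marker genes of 5 other cell types, in CPM (vertical axes from 0), with a bar for each young (blue) and aged (orange) sample. Aged B was highest for Cd36 at 844 CPM and for platelet, keratinocyte, fibroblast and endothelial markers at 3910, 191, 121 and 33.6 CPM. It was not highest for neutrophil markers. Without Ppbp the platelet sum was not highest in aged B.

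The other class B genes were measured at lower levels and did not pass. Scarb1, at chr5:125277087-125341094 on the minus strand, encodes the receptor SR-BI, which takes cholesteryl esters from high-density lipoprotein. It was at 40.4, 63.7 and 42.9 CPM in young A, B and C and 44.6, 33.4 and 34.8 CPM in aged A, B and C. The ages overlapped, since aged A was above young A and young C, and young B was the highest sample. The log2FC of Scarb1 was -0.38 (SE 0.21, edgeR adjusted p = 0.227). Scarb2, at chr5:92441314-92506833 on the minus strand, encodes LIMP-2, a membrane protein of lysosomes. Its values were 109, 129 and 145 CPM in young A, B and C and 146, 144 and 164 CPM in aged A, B and C. Only aged B fell within the range of the young samples, just under young C. For Scarb2 the log2FC was 0.25 (95% confidence interval -0.12 to 0.61, edgeR adjusted p = 0.323).

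Within a sample, the ratio of class B genes to each other does not depend on the depth of the library. The log2 ratio of Cd36 to Scarb1 in CPM was 3.07, 2.46 and 2.95 in young A, B and C and 3.36, 4.65 and 3.88 in aged A, B and C, higher in every aged sample than in any young one. It differed by 1.14 between the ages (two-sided exact permutation p = 0.1, which is the lowest possible with 3 samples against 3, and 0.2 after adjustment over 4 pairs). The log2 ratio of Cd36 to Scarb2 was 1.43 ± 0.23 in young and 1.95 ± 0.52 in aged samples (SD, n = 3), and that of Scarb1 to Scarb2 was -1.40 ± 0.37 and -2.01 ± 0.27. Both overlapped between the ages (exact permutation p = 0.2 for each). Without aged B, the age differences of Cd36 against Scarb1 and against Scarb2 were 0.79 and 0.22.

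Of class A, Msr1 encodes the trimeric receptor SR-A with a collagen-like stalk, which binds acetylated LDL, and lies on the minus strand at chr8:39581685-39642673. It was measured at 371, 428 and 506 CPM in young A, B and C and at 489, 527 and 474 CPM in aged A, B and C. Young C lay among the aged samples, and the aged samples were closer together, with a coefficient of variation of 5.42% beside 15.6% in young samples. The log2FC was 0.19 (95% confidence interval -0.19 to 0.57, edgeR adjusted p = 0.463). Msr1 has 5 annotated transcripts, which were counted together.

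Marco, at chr1:120474538-120505024 on the minus strand, encodes a class A receptor for bacteria and inhaled particles that is typical of alveolar and marginal zone macrophages. It was close to undetected, with 2, 0 and 40 counts in young A, B and C and 1, 0 and 0 counts in aged A, B and C. Young C held 93% of its 43 counts, and 3 counts were left without that sample. A count of 0 allows up to 3 counts, which is 0.176 CPM in young B, 0.191 CPM in aged B and 0.185 CPM in aged C, for counting error only. No age difference can be read from these counts. With no filter on low counts the edgeR adjusted p was 0.101, and DESeq2 gave Marco no adjusted p. The log2 ratio of Marco to Msr1 ran from -11.75 to -7.52 in young and from -12.05 to -11.30 in aged samples (exact permutation p = 0.2). That ratio rests on the prior count of 2 added to each gene, and without young C its age difference went from -1.78 to -0.56.

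Cd68 encodes macrosialin, a heavily glycosylated protein of late endosomes and lysosomes that binds oxidised LDL and is widely used to stain macrophages. The gene is short and lies on the minus strand at chr11:69664213-69666153. It was measured at 1789, 1947 and 2146 CPM in young A, B and C and at 1483, 1572 and 1383 CPM in aged A, B and C. Every aged sample was below every young sample, by a margin smaller than the range among the young samples. The means were 1961 ± 179 and 1479 ± 94.6 CPM (SD, n = 3), a fitted ratio of 0.755 (95% confidence interval 0.580 to 0.982). The log2FC of -0.41 (SE 0.17) did not pass in edgeR (adjusted p = 0.121), and it passed in limma-voom with sample quality weights (-0.49, adjusted p = 0.0234), in a range of 0.0234 to 0.140 over the 6 alternatives that used all samples.

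Cd5l, at chr3:87357881-87371073 on the plus strand, encodes a secreted protein of scavenger receptor cysteine-rich (SRCR) domains that is made by resident macrophages of liver and other tissues. It was low, with 44, 86 and 46 counts in young A, B and C and 20, 62 and 24 counts in aged A, B and C. These are 2.43, 5.05 and 3.04 CPM in young and 1.40, 3.95 and 1.48 CPM in aged samples. The B samples were the highest at both ages, and aged B lay above young A and young C. The interval of the log2FC was wide, from -1.65 to 0.42 around -0.62 (SE 0.47, edgeR adjusted p = 0.375). Without aged B the log2FC was -1.27 (edgeR adjusted p = 0.0860).

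**Figure D3:**
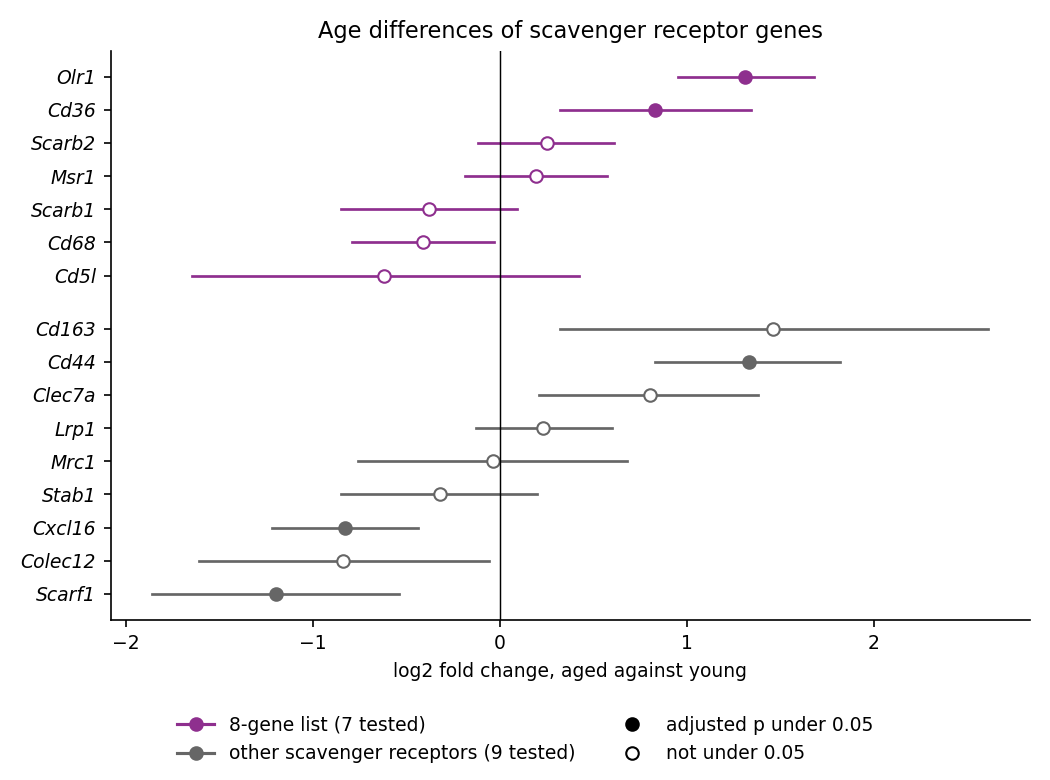
Log2 fold change of aged against young samples (horizontal axis) for the 7 tested genes of the 8 (purple) and the 9 tested genes among 20 other scavenger receptors (grey), with 95% confidence intervals as lines and filled points for an edgeR adjusted p-value under 0.05. Olr1 at 1.31 and Cd36 at 0.83 passed, as did Cd44 at 1.33, Cxcl16 at -0.83 and Scarf1 at -1.20.

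Levels of different genes were compared in CPM per kb of the longest annotated transcript. In young samples Cd68 stood at 1594 ± 145 CPM per kb (SD, n = 3), rank 38 among 14855 genes with a length, and 13.3 times the level of Msr1, which came next. Msr1 at 120 ± 18.6 and Cd36 at 100 ± 2.62 CPM per kb overlapped between samples. Scarb2 followed at 27.2 ± 3.91 CPM per kb, below Cd36 in every sample, and then Scarb1 at 15.8 ± 4.14 and Olr1 at 14.1 ± 1.20 CPM per kb, which overlapped. Cd5l at 1.72 ± 0.671 CPM per kb lay 8.20-fold below Olr1, and Marco was last, overlapping Cd5l only through young C.

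In aged samples the order per length was Cd68, Cd36, Msr1, Olr1, Scarb2, Scarb1, Cd5l and Marco. Cd36 at 178 ± 61.2 CPM per kb stood before Msr1 at 137 ± 7.40, and Olr1 at 35.1 ± 4.37 before Scarb2 at 32.2 ± 2.41 and Scarb1 at 12.2 ± 1.96. Cd36 and Msr1 overlapped between samples, as did Olr1 and Scarb2, whereas Olr1 was above Scarb1 in every aged sample. Cd68 was at 1203 ± 76.9 CPM per kb and ranked 77. Its share of the summed level per length of all 8 genes was 85.1, 84.8 and 85.3% in young A, B and C and 77.4, 73.3 and 75.4% in aged A, B and C. Over the same samples the share of Cd36 was 5.87, 5.53 and 4.79% and then 8.68, 14.2 and 10.1%, and that of Olr1 was 0.836, 0.688 and 0.745% and then 2.37, 1.73 and 2.56%. With the union length of all exons in place of the longest transcript, 2 of the 3 pairs of young neighbours that overlapped changed places, Msr1 with Cd36 and Scarb1 with Olr1, which then stood at 5.76 ± 1.51 and 14.1 ± 1.20 CPM per kb in young samples. Cd5l and Marco did not, and the aged order was the same.

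**Figure D4:**
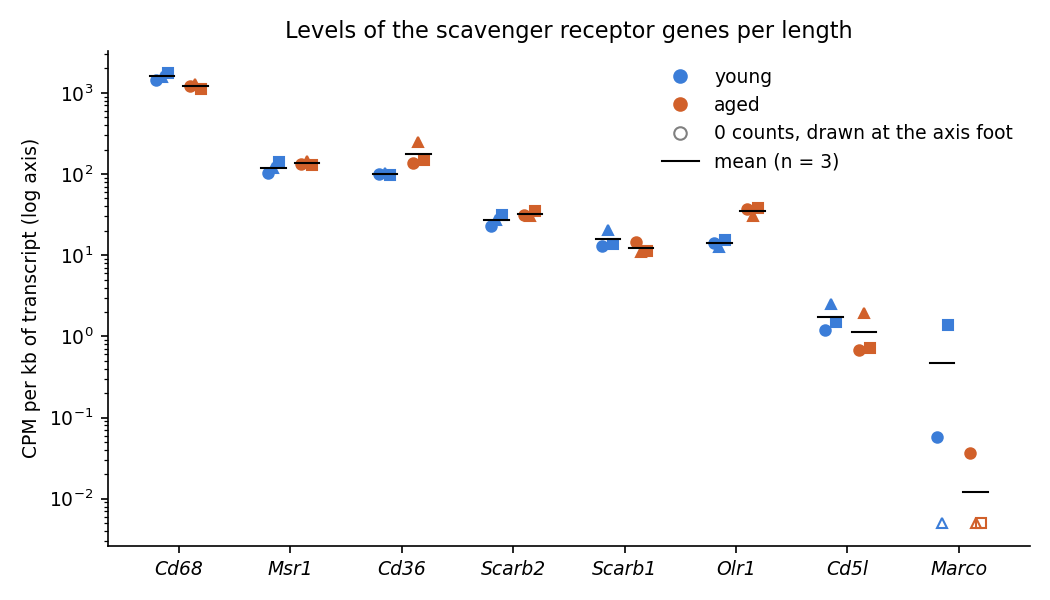
Level of the 8 genes in CPM per kb of transcript (log axis) in each young (blue) and aged (orange) sample, ordered by the young mean, with a line for the mean of 3 samples and open symbols at the foot of the axis for samples with 0 counts. Cd68 was more than 10 times above Msr1 in young samples, and by this length Olr1 overlapped Scarb1 in young and Scarb2 in aged samples.

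The promoters of Olr1 and Cd68 are shown because the former rose and the latter had lower values in aged samples while both hold the letters of an AP-1 motif, and that of Cd36 because it rose too and holds none. Windows of 300 bases, from 250 bases before to 50 bases after the annotated start, were given for 6 of the 8 genes by RefSeq on GRCm38.p6, all but Msr1 and Scarb1. They are written 5′ to 3′ on the strand of the gene, with capitals for TGANTCA, the motif of AP-1 factors such as Fos and Jun. The windows lie on the minus strand at chr6:129507116-129507415 (Olr1), chr11:69666121-69666420 (Cd68) and chr5:17835847-17836146 (Cd36), the last at a start inside the annotated span of Cd36.
Olr1: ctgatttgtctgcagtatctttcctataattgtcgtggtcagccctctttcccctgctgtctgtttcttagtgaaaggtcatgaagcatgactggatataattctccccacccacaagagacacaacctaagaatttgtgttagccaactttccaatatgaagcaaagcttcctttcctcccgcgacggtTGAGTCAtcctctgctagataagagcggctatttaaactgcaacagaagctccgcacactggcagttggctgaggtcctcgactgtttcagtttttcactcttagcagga
Cd68: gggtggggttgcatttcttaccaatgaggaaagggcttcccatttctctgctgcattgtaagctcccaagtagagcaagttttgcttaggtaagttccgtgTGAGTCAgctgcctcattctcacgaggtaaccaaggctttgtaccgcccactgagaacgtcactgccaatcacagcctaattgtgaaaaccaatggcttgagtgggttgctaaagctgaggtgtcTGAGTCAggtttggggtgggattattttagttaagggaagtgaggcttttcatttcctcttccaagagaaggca
Cd36: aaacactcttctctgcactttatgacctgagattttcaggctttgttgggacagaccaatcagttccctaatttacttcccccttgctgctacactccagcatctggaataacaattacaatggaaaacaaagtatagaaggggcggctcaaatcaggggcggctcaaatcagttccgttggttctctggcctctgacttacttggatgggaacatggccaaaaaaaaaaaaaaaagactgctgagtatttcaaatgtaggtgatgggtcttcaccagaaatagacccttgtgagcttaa

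Each motif was searched on both strands. TGANTCA was found once in the window of Olr1, starting 60 bases before the transcript start, and at 2 places in that of Cd68, 149 and 24 bases before it. Among all 32851 promoter windows, 7.81% held it. GAGGAA, the core of sites for the myeloid factor PU.1, was found in the windows of Marco, Cd5l, Olr1 and Cd68 and in 28.3% of all windows. TGACNNNGC, the core of the antioxidant response element bound by NRF2, was found in the window of Scarb2 and in 12.4% of all windows. TGACNNNGC can share its first letters with TGANTCA, and no match of both overlapped here. CACGTG, the E-box of MITF and TFEB, was in 7.15% of all windows and TATAAA, the TATA box, in 13.6%, and neither was in the 6 windows. The window of Cd36 held none of the 5 motifs. A match describes the letters and not the binding of a factor.

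**Figure D5:**
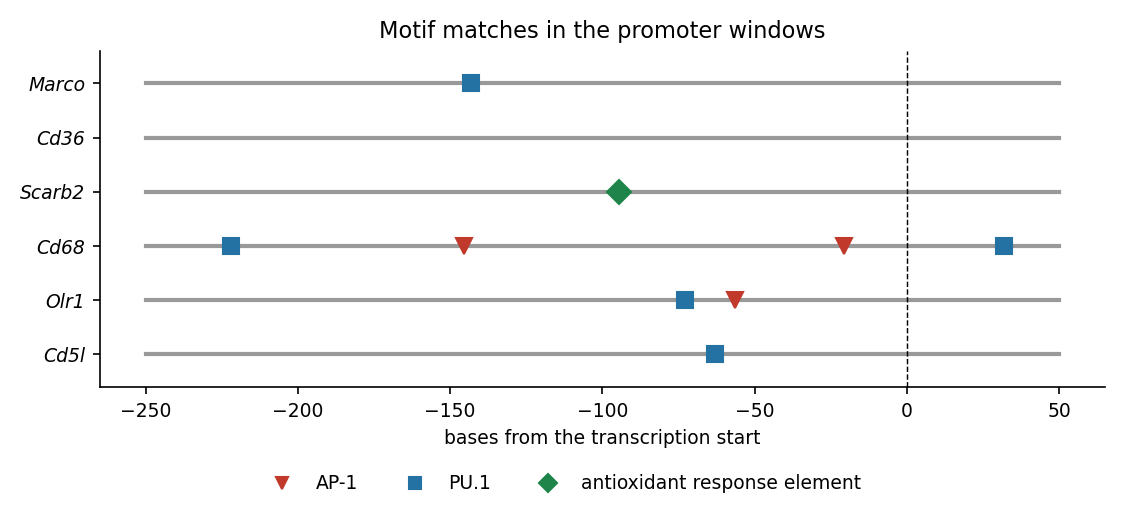
Positions of motif matches in the 6 promoter windows, as distance in bases from the annotated transcript start (horizontal axis, dashed line at 0), with a grey line for each window and a symbol for each match. Olr1 has an AP-1 match and a PU.1 match close together upstream of the start, Cd68 has AP-1 matches at 2 places, and Cd36 has no match.

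Among 16 transcription factors linked to these genes, all tested, 5 passed in edgeR and all 5 were higher in aged samples, and their median log2FC was 0.28. With a replicate block 1 was called lower. The highest was that of Nfkb1, a subunit of NF-κB, which acts on Olr1 in other cells, at 1.41 (SE 0.18, edgeR adjusted p = 0.00242), from 21.1 ± 2.63 to 56.1 ± 8.59 CPM. The lowest was that of Maf, at -0.61 (SE 0.32, edgeR adjusted p = 0.205), and the most abundant was Cebpb, which rose from 2838 ± 444 to 4815 ± 746 CPM (log2FC 0.76, SE 0.20, edgeR adjusted p = 0.0316). Nfkb1 passed in each of the 6 fits with a sample left out and Cebpb in 2 of them, those without young A (0.0205) and aged B (0.0230). Pparg, a nuclear receptor known to drive Cd36, was chosen after its values were seen and was at 12.8 ± 4.16 CPM in the young and 8.74 ± 3.85 CPM in the aged samples (log2FC -0.55, edgeR adjusted p = 0.283). Fos and Jun, chosen for the AP-1 motif, had log2FC values of -0.51 (SE 0.27) and 0.13 (SE 0.16) and did not pass.

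Of 20 other scavenger receptors, 13 were in the count table and 9 were tested, 1 rose and 2 fell, and the median log2FC was -0.04. Cd44, the hyaluronan receptor, rose from 721, 393 and 560 CPM in young A, B and C to 1405, 1355 and 1438 CPM in aged A, B and C, 2.51-fold (log2FC 1.33, SE 0.22, edgeR adjusted p = 0.00738). Cxcl16, a transmembrane chemokine that binds oxidised LDL, fell from 421 ± 58.8 to 237 ± 26.5 CPM (log2FC -0.83, SE 0.18, edgeR adjusted p = 0.0152). Scarf1, a receptor for apoptotic cells through C1q, fell from 9.80 ± 2.99 to 4.26 ± 0.899 CPM (log2FC -1.20, SE 0.30, edgeR adjusted p = 0.0248). In all 3 genes, named because they passed, the aged samples did not overlap the young ones. That held for 5 of the 9 tested genes of the list and for 38.2% of all genes tested. With the samples left out in turn, 0 to 2 of the 9 passed as higher and 0 to 2 as lower, and without young C none passed in either direction. There the edgeR adjusted p of Cd44 was 0.0523. Cxcl16 was over 0.05 without young B (0.0549), young C (0.0746) or aged C (0.0719), and Scarf1 was under 0.05 only in the fit without young A, in a range of 0.00692 to 0.105.

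Toll-like receptors and Src family kinases signal together with CD36 and SR-A. Of 12 co-receptors and kinases, all tested, 4 passed in edgeR and all 4 were higher, with a median log2FC of 0.53. Here too the replicate block called 1 lower. Tlr4, the lipopolysaccharide receptor that can pair with Tlr6 and CD36, had the highest log2FC, at 1.53 (SE 0.19, edgeR adjusted p = 0.00202), and rose from 95.9, 69.1 and 78.1 CPM in young A, B and C to 198, 246 and 258 CPM in aged A, B and C. Beside it, Tlr6, Tlr2 and the kinase Syk rose with log2FC values of 1.36, 0.80 and 1.11 (edgeR adjusted p of 0.0170, 0.0201 and 0.0237), genes chosen after their values were seen. Tlr4 passed in each of the 6 fits with a sample left out. Tlr2 was over 0.05 without young C (0.0831) or aged C (0.0758), Tlr6 without young B (0.0645) or young C (0.0896), and Syk passed in the fits without young A (0.00231) and aged B (0.0324) alone. Mertk was lowest, and the most abundant was the tetraspanin Cd9, at 642 ± 75.1 CPM in the young and 877 ± 190 CPM in the aged samples (log2FC 0.45, SE 0.20, edgeR adjusted p = 0.144).

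Genes that encode ligands differed widely from each other. Of 6 ligand genes 5 were tested, 1 rose and 2 fell, and the median log2FC was 0.20. Thbs1, which encodes the CD36 ligand thrombospondin-1, was highest and rose from 6953, 2011 and 2597 CPM in young A, B and C to 18894, 15197 and 16472 CPM in aged A, B and C. Its log2FC was 2.13 (SE 0.41, edgeR adjusted p = 0.0115), and young A stood above the other young samples. Without young A it was 2.88. Lpl, which encodes the lipoprotein lipase that frees fatty acids from lipoproteins, was lowest and fell from 315 ± 37.7 to 78.8 ± 22.4 CPM (log2FC -2.0, SE 0.22, edgeR adjusted p = 0.00136). Apoe was the most abundant by mean over the 6 samples, but was below Thbs1 in every aged sample. It fell from 14081 ± 987 to 7771 ± 1526 CPM (log2FC -0.86, SE 0.21, edgeR adjusted p = 0.0244). Lpl passed in each fit with a sample left out, Thbs1 in each but that without young C (0.0688), and Apoe in 2 of 6, those without young A (0.0263) and aged B (0.0359).

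Lipid handling genes, of which Lpl and Apoe are also part, moved in both directions. Of 18 genes 17 were tested, 6 rose and 5 fell, and their median log2FC was 0.48. Lpl, described above, was the lowest of them and Apoe the most abundant. With the samples left out in turn, 0 to 8 of these genes passed as higher and 2 to 5 as lower.

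Among lysosome partners of LIMP-2 and CD68, all 14 were tested, 1 rose and 2 fell, and the median log2FC was -0.07. Tfe3, a factor that drives lysosomal genes, was highest at 0.68 (SE 0.20, edgeR adjusted p = 0.0396). The lowest was the lysosomal tetraspanin Cd63, which fell from 507 ± 74.1 to 266 ± 46.6 CPM (log2FC -0.93, SE 0.19, edgeR adjusted p = 0.0141), and the most abundant was the protease gene Ctsd, at 4074 ± 787 and 3864 ± 942 CPM (log2FC -0.08, SE 0.23, edgeR adjusted p = 0.843). Over the fits with a sample left out, Tfe3 passed only in that without young A (0.0201, with 0.0565 to 0.158 in the others), and Cd63 was over 0.05 without young C (0.0704) or aged C (0.0623).

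Of 14 genes with SRCR domains, Msr1, Marco and Cd5l included, 11 were in the count table and 5 were tested, and 1 passed. Lgals3bp, a secreted galectin-binding protein, was the lowest and fell from 296 ± 17.3 to 122 ± 14.4 CPM (log2FC -1.28, SE 0.16, edgeR adjusted p = 0.00236). The highest was Cd163, the haemoglobin scavenger receptor of resident macrophages, at 20.6, 34.8 and 19.6 CPM in young A, B and C and 27.6, 141 and 38.8 CPM in aged A, B and C (log2FC 1.46, SE 0.52, edgeR adjusted p = 0.0739). As with Cd36, aged B was far above the other samples, and without it the log2FC of Cd163 was 0.42 (edgeR adjusted p = 0.341). Cd163 passed without aged A (1.84, edgeR adjusted p = 0.0315), and the replicate block called 1 gene of the list higher. Msr1 was the most abundant gene of the list, and the median log2FC was -0.62.

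Olr1 lies in a cluster of C-type lectin genes on chromosome 6, and the neighbours that passed in edgeR were lower in aged samples, while DESeq2, limma-voom and the fit with a replicate block each called 1 of them higher as well. Of 8 neighbours 6 were in the count table and 5 were tested, 2 passed, both of them lower, and the median log2FC was 0.19. These neighbours, called lectin neighbours below, include Gabarapl1, which is not a lectin gene and whose log2FC of 0.19 is that median. Clec12a, an inhibitory receptor, was the lowest and fell from 192 ± 25.8 to 57.6 ± 7.22 CPM (log2FC -1.74, SE 0.18, edgeR adjusted p = 0.00127), and it passed in each fit with a sample left out. The other gene called lower passed in none of these 6 fits (0.0523 to 0.145). Clec1a was highest at 1.54 but low in counts (SE 0.86, edgeR adjusted p = 0.231), and it ran from 0.97 without young B to 2.80 without young A. The most abundant was Clec7a, which encodes the beta-glucan receptor Dectin-1, at 513, 402 and 413 CPM in young A, B and C and 931, 457 and 918 CPM in aged A, B and C. Aged B lay within the range of the young samples, and Clec7a did not pass (log2FC 0.80, SE 0.26, edgeR adjusted p = 0.0604).

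Markers of monocytes, resident macrophages and neutrophils were measured because the sort could hold cells in these states or types. Of 8 monocyte markers, all tested, 3 passed in edgeR and all 3 were higher, while DESeq2 called 5 higher. Vcan passed in each of the 6 fits with a sample left out, and the other genes called passed in 5 and 1 of them. The 8 markers summed to 1620, 2596 and 3362 CPM in young A, B and C and 5078, 4051 and 3664 CPM in aged A, B and C. The highest log2FC was that of Vcan at 2.13 (SE 0.23, edgeR adjusted p = 0.00136), the lowest that of Ccr2 at -0.16 (SE 0.28), and Chil3 was the most abundant at 1257 ± 684 and 2433 ± 472 CPM. Of 8 resident macrophage markers 7 were tested and 1 passed in edgeR, Cbr2, which fell and was the lowest (log2FC -1.16, SE 0.34, edgeR adjusted p = 0.0428). DESeq2 called 1 higher and 2 lower, and limma-voom called 2 lower. Cbr2 passed in 2 of the 6 fits with a sample left out, without young A (0.0389) and aged B (0.00273, with a log2FC of -1.74). Cd163 was the highest of them and F13a1 the most abundant, at 659 ± 141 and 882 ± 27.7 CPM. The resident markers summed to 1142, 1595 and 1314 CPM in young A, B and C and 1125, 1739 and 1232 CPM in aged A, B and C. Without F13a1 these sums were 616, 788 and 672 CPM and then 237, 832 and 380 CPM.

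The gate had no step against cells with Ly6G, a surface protein of neutrophils. Of 15 neutrophil markers 13 were in the count table and 12 were tested. In edgeR 4 passed and all 4 were higher, while limma-voom also called 1 lower. The markers summed to 717, 1217 and 1170 CPM in young A, B and C and 1583, 926 and 1559 CPM in aged A, B and C. Cd177 had the highest log2FC, 1.62 (SE 0.31, edgeR adjusted p = 0.0116), Mmp9 the lowest, -0.54 (SE 0.24), and S100a9 was the most abundant at 264 ± 71.3 and 303 ± 131 CPM. In the fit without young A, Mmp9 passed as lower (log2FC -0.75, edgeR adjusted p = 0.0283). Without young C the adjusted p of Cd177 was 0.0549, and it passed in the other 5 fits with a sample left out. Of the other 3 genes called, 1 passed in 2 of these 6 fits and 2 passed in 1. The defining marker Ly6g was at 8.15 ± 2.47 and 8.43 ± 1.95 CPM, and Elane was at 0 in every young sample and in aged B. The part of monocytes, resident macrophages and neutrophils in the values of Olr1, Cd36 and Cd68 was not tested.

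Markers of other cell types were measured as well. Of 7 fibroblast markers with counts, 6 were tested and, with all samples, none passed in edgeR, DESeq2 or limma-voom or had an unadjusted edgeR p under 0.05. The markers summed to 28.9, 23.4 and 41.6 CPM in young A, B and C and 12.4, 121 and 35.8 CPM in aged A, B and C. Among them Col1a1 was highest at 1.57 (SE 0.73, and 0.16 without aged B). Without aged A its log2FC was 2.07 and it passed (edgeR adjusted p = 0.0405). Col1a2 was lowest at 0.55 (SE 0.73, and -0.82 without aged B) and Col3a1 the most abundant at 11.3 ± 3.03 and 19.2 ± 25.2 CPM. Of 8 dendritic cell markers, of which 7 had counts, 6 were tested, and 2 had an unadjusted p under 0.05 while 0 passed in edgeR or DESeq2 and 2 in limma-voom. Ccr7 was the highest of these (log2FC 1.54, SE 0.58, and 2.61 without young A, where it passed with an edgeR adjusted p of 0.00582). It was also the most abundant by mean over the 6 samples. Cd209a was the lowest (-0.67, SE 0.31), and in young samples its mean of 11.8 ± 4.63 CPM was above that of Ccr7, 8.78 ± 7.87 CPM. The sum was 31.6 ± 21.0 and 55.7 ± 34.4 CPM. Of 5 Langerhans cell markers 4 were tested and 1 rose, Cdh1, at a log2FC of 2.41 (SE 0.29, edgeR adjusted p = 0.00195). Cd207, which defines these cells, was the lowest at -1.02 (SE 0.69), a value that rests on young A and was 0.02 without it. Mfge8 was the most abundant by mean over the 6 samples, at 8.26 ± 0.569 and 6.76 ± 1.32 CPM. In aged samples Cdh1 had a higher mean, 9 ± 2.03 CPM. The sum was 18.7 ± 6.53 and 24.4 ± 6.55 CPM.

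Lymphocyte markers summed to 2.91 ± 0.343 CPM in the young and 2.18 ± 0.335 CPM in the aged samples, and Nkg7 was the only gene of 8 with enough counts to test (log2FC -1.80, SE 0.59, edgeR adjusted p = 0.0586). Of 6 erythroid markers 5 were tested, 4 passed and all 4 were lower in aged samples. Their sum was 153, 490 and 423 CPM in young A, B and C and 41.8, 152 and 106 CPM in aged A, B and C, with Hbb-bs the most abundant, Hbb-bt the lowest (log2FC -2.15, SE 0.62, edgeR adjusted p = 0.0384) and Alas2 the highest (-1.49, SE 0.53). Hbb-bt passed in the fits without young A (0.0125) and aged B (0.00522, where its log2FC was -3.30) and not in the other 4, which reached 0.130.

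The genes whose pattern over the 6 samples was closest to each scavenger receptor gene were found among 6588 genes with a mean of at least 10 CPM. Likeness was the mean absolute difference in log2 CPM centred on each gene's mean over the 6 samples, so a smaller value is closer. For Olr1 the closest were Ezr, Lrrc8c and N4bp1 (0.0790, 0.0869 and 0.0923), and for Cd36 Xpo1, Rc3h1 and Erbin (0.0758, 0.0787 and 0.0823). Cd68 was followed most closely by Ap2s1, Cops5 and Txn2 (0.0297, 0.0322 and 0.0380), Msr1 by St7l, Arsa and Anxa7 (0.0336, 0.0390 and 0.0424), and Scarb2 by Erp44, Ddost and Crlf3 (0.0287, 0.0402 and 0.0486). Scarb1 was nearest to Gatd1, Arhgap4 and Sirt7 (0.0535, 0.0544 and 0.0644) and Cd5l to Ints4, Nrp1 and Maf (0.0849, 0.106 and 0.151). Marco had no close match, with Gpnmb nearest at 0.844, then Gdf3 at 0.875 and Nup85 at 0.876. None of the 8 genes was among the closest to another, though Marco and Cd5l, with means under 10 CPM, could not be listed.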

How the data were processed

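RNA of 3 young and 3 aged samples of sorted wound macrophages was measured. Per the notes of the authors, reads were aligned to mm10 with STAR 2.7.3a and assigned to transcripts of Ensembl release 102 with Partek Flow. The deposited values are expected counts of each gene, not normalised. Whether counting used the strand is not given in the sources used here. The exons of the 8 genes overlapped no exon of another gene in GENCODE M21. A second deposited table holds the authors' DESeq2-normalised values, p-values and fold changes and was not used.

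Expected counts were rounded. edgeR 4.0.16 (TMM, filterByExpr, quasi-likelihood test, Benjamini-Hochberg over 11878 genes, R 4.3.3) compared aged with young samples, and a gene passed at an adjusted p-value under 0.05. CPM used TMM library sizes, and 1 count was 0.0553 to 0.0701 CPM. Log2 CPM used a prior count of 2. Class ratios were tested by exact permutation in scipy 1.17.1. The script for the edgeR fit was tested on simulated data. Alternatives used DESeq2 1.42.0 and limma 3.58.1. Gene lengths came from GENCODE M21.

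The members and lists were chosen with earlier results of these data known. Genes named were the 8 members, other scavenger receptors that passed, the highest, lowest and most abundant gene of each other list, and the 3 closest patterns per member. The most abundant gene of a list was that with the highest mean over the 6 samples. Some genes of the lists are not reported here. Marker lists covered macrophages, monocytes, resident macrophages, neutrophils, adipocytes, endothelial cells, platelets, keratinocytes, fibroblasts, dendritic cells, Langerhans cells, lymphocytes and erythroid cells.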

Additional observations from a re-analysis of the deposited data

How the results depend on the processing

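The log2 fold changes of Msr1, Olr1, Scarb1, Scarb2 and Cd5l kept their direction and their side of the threshold in all 12 alternatives. Over the fits that each left out 1 sample, log2 fold changes ran from 0.09 to 0.31 for Msr1, 1.25 to 1.43 for Olr1, -0.52 to -0.14 for Scarb1, 0.14 to 0.35 for Scarb2, -1.27 to -0.26 for Cd5l and -0.47 to -0.34 for Cd68. For Cd36 they ran from 0.52 to 0.99, with edgeR adjusted p from 0.0254 to 0.129, and 2 of the 6 passed. These fits had fewer samples, and the share of all genes that passed in them ran from 1.78% without young C to 22.3% without young A. Cd36 passed in the other 6 alternatives. Cd68 passed in limma-voom with sample quality weights (log2 fold change -0.49), where 30.7% of all genes passed, so that 1 of the 8 genes was called lower there. Without each sample in turn, 1 to 2 of the 8 genes were called higher. With the 2-fold threshold 1 was called higher.

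Of the other scavenger receptors, 1 was called higher in edgeR, 2 in DESeq2, 2 in limma-voom and 0 to 2 with a sample left out. As lower, 2 were called in edgeR, 1 with the 2-fold threshold and 0 to 2 with a sample left out. With the set letter as a replicate block, 3 of the other scavenger receptors were called higher and the log2 fold changes of Cd36 and Cd68 were 0.77 and -0.40. The correlations of same-letter samples' deviations from the age means were 0.181, -0.0206 and 0.114 for A, B and C. With 3 samples of each age, these values cannot decide whether the letters pair the samples. Not every sample correlated best with its own letter, and young B did so with aged C (0.0468).

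With the union length of all exons, 4 of the 8 genes had the same place in the young order. The 2-fold threshold left 1 higher and 2 lower lipid handling genes, 2 higher transcription factors, 3 higher co-receptors and kinases, 1 higher and 1 lower ligand gene and 0 lysosome partners. Over the fits without each sample in turn, transcription factors called higher were 1 to 4 of 16, co-receptors and kinases 1 to 6 of 12, ligand genes 0 to 2 higher and 1 to 2 lower, lysosome partners 0 to 1 higher and 0 to 2 lower, SRCR genes 0 to 2 higher and 1 lower, and lectin neighbours 0 to 1 higher and 1 lower. Without the filter on low counts 1 lectin neighbour was called lower. With the replicate block 1 transcription factor and 1 co-receptor or kinase were called lower, beside 0 in the main fit. The causes of these differences between tools were not tested. No raw count ratio was computed for Marco, which had counts of 0.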

Other observations

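These are 3 samples of each age at a single time, so a difference has to be large or even to pass. Calls of Cd36, Cxcl16 and Scarf1 were lost in several fits with 1 sample fewer, while Olr1 passed in each of the 6. RNA levels say nothing of protein at the cell surface, of uptake, or of the secreted Cd5l protein. The counts do not separate transcripts of a gene. Marco and Cd5l had few counts, and Cd5l also varied between samples of an age. Ages were not sampled between 12 weeks and 24 months.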
